A study of Rattus norvegicus with 22 samples.

Results

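The chemokine ligand genes encode chemokines, small secreted proteins that guide the movement of leukocytes. They were chosen by name as every gene of the deposited table whose symbol is Ccl or Cxcl followed by a number, together with Cx3cl1 and Xcl1. The rule gave 34 of 32623 genes, of which 20 are Ccl and 12 are Cxcl genes. In the annotation of Ensembl release 99, chromosome 10 holds 11 of the 34 and chromosome 14 holds 8.

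The libraries were made from epididymal fat and gastrocnemius muscle of male Sprague Dawley rats that had been bought at 3 weeks of age and made obese on high-fat feed. By the study's scheme the rats were 15 weeks old at the end of a 4-week intervention, and they were fasted before sampling. Hypoxia exercise rats (HE) breathed air with lowered oxygen and ran on a treadmill at 20 m/min, and their libraries are FHE in fat (n = 2) and MHE in muscle (n = 3). Hypoxic quiet rats (H) had the same lowered oxygen without training, giving FH (n = 2) and MH (n = 3). Normoxia exercise rats (CE) ran at 25 m/min in ordinary air, giving FCE (n = 3) and MCE (n = 3). Normoxia quiet rats (C) had neither treatment, giving FC (n = 3) and MC (n = 3). All 4 groups were obese and on the same feed, so none is a lean control. Because the treadmill speeds differed, oxygen and speed cannot be told apart in HE against CE or in the interaction of exercise and hypoxia. Each library reads as 1 rat, and no source used here says which fat and muscle libraries came from the same rat. The p-values measure the spread between these libraries.

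Chemokines are named after the spacing of their first cysteines and act through receptors with matching names. CC ligands such as Ccl2 and Ccl7 call monocytes from the blood through the receptor Ccr2, and Ccl11 and Ccl24 call eosinophils through Ccr3. CXC ligands split into those that attract neutrophils through Cxcr2 (Cxcl1, Cxcl2, Cxcl3 and Cxcl6), those that interferon gamma induces and that attract T cells and NK cells through Cxcr3 (Cxcl9, Cxcl10 and Cxcl11), and homeostatic ligands such as Cxcl12, which holds progenitors and lymphocytes in tissues through Cxcr4. In obesity, macrophages gather in fat, and Ccl2 is the best known of the ligands in that process. Contracting or injured muscle can also make chemokines.

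Levels are given as CPM of nuclear counts, that is, a gene's counts per 1000000 counts of the library outside the mitochondrial genome. This scale was used because mitochondrial transcripts took 10.1% to 44.7% of the counts in fat and 89.4% to 97.4% in muscle. Total counts were 31449793 to 44334313 in fat and 27149905 to 43834953 in muscle, but nuclear counts were 20060028 to 36162561 in fat and only 841153 to 4334813 in muscle. A level of 3 counts, taken as the detection limit, was therefore worth 0.0830 to 0.150 CPM in fat and 0.692 to 3.57 CPM in muscle. The labelled tissues carried their markers: 8 adipocyte genes summed to 18418 to 45808 CPM in fat and 649 to 1485 CPM in muscle. The 8 skeletal muscle fibre genes found in the table summed to at most 63.6 CPM in 8 fat libraries, to 25656 CPM in FHE3 and 1501 CPM in FCE2, and to 42009 to 92134 CPM in muscle. The library FH3 also stood apart, with mesothelial markers at 1196 CPM, against 14.4 to 168 CPM in the other 9 fat libraries. Its macrophage markers were at 3565 CPM, against 648 to 2002 CPM, and its adipocyte markers at 18418 CPM, against 29262 to 45808 CPM. By the paper's read figures, FH3 had the lowest share of exon reads and the highest of intron reads in fat. The paper left out rats whose fat RNA failed its quality check, without naming their groups. In whole tissue, fewer cells of a type and less RNA per cell cannot be told apart.

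In fat, 25 of the 34 ligands had at least 3 counts in every library and 3 (Ccl20, Ccl25 and Ccl26) were under 3 counts in every library. In muscle, 9 ligands had at least 3 counts in every library, 7 were under 3 counts in every library, and 4 of these (Ccl20, Ccl25, Ccl26 and Ccl28) had no count at all. The limits for those 4 are the 0.692 to 3.57 CPM that 3 counts are worth in a muscle library, so a level like that of Ccl28 in fat, 0 to 0.299 CPM, was not detectable there. A mean of at least 5 CPM was reached by 15 ligands in fat and 14 in muscle.

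**Figure D1:**
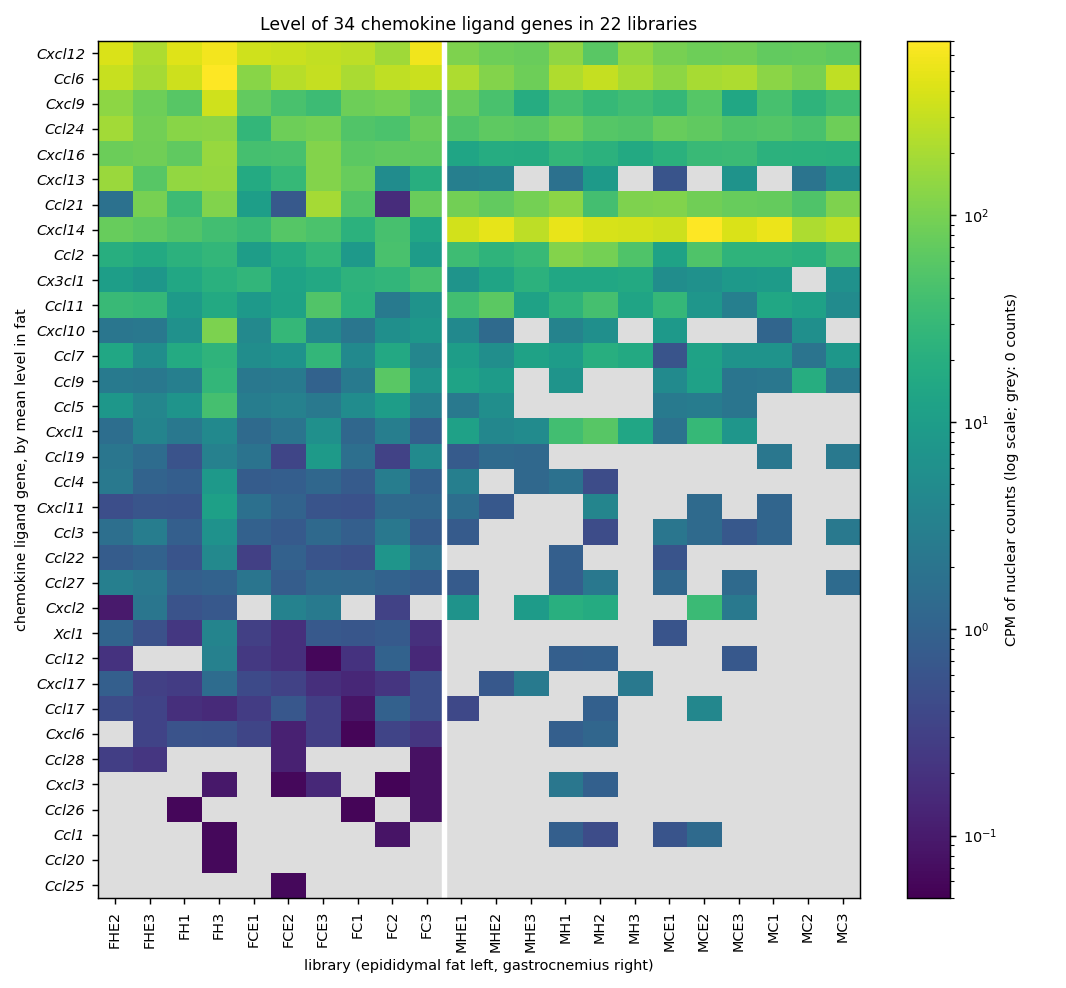
CPM of nuclear counts (colour, log scale) of the 34 chemokine ligand genes (down, by mean level in fat) in 10 fat and 12 muscle libraries (across), with grey for 0 counts. In fat 25 genes have at least 3 counts in every library, in muscle 9.

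Per length of transcript, measured as TPM rescaled over nuclear genes, Ccl6 led the ligands in fat and Cxcl14 in muscle. Ccl6, a myeloid cell attractant known from mouse, ranged from 136 to 863 TPM in fat (median 312) and made up 29.2% of the summed TPM of all 34 ligands there (SD 5.22, n = 10). Cxcl14, a ligand that many epithelia and connective tissues make without inflammation, ranged from 156 to 500.1 TPM in muscle (median 297) and made up 35.2% of the sum (SD 7.25, n = 12). After Ccl6, the fat medians of Cxcl12, Ccl24, Cxcl13, Ccl21 and Cxcl9 lay between 75.7 and 95.2 TPM, and their ranges over libraries overlapped one another. In muscle, Ccl6 (median 175 TPM) and Ccl21 (129 TPM) followed Cxcl14, and Ccl2 (50.1 TPM) and Ccl24 (48.9 TPM) came next, again with overlapping ranges.

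Among the homeostatic ligands, Cxcl12 was higher in fat and Cxcl14 higher in muscle. Cxcl12 (chromosome 4, 149261044 to 149273891, plus strand, Ensembl release 99) was at 401 and 219.9 CPM in FHE, 434 and 589 in FH, 349, 322 and 294 in FCE, and 269, 180.0 and 564 in FC. In muscle it was at 111, 86.2 and 77.8 CPM in MHE, 143, 61.4 and 149.8 in MH, 100.1, 85.4 and 89.1 in MCE, and 70.1, 73.6 and 65.7 in MC. The lowest fat library lay above the highest muscle library, and the log2 fold change of fat over muscle was 2.05 with SE 0.17 (adjusted p = 1.57e-09, edgeR). Cxcl14 (chromosome 17, 9109731 to 9117750, plus strand) was at 75.2 and 64.7 CPM in FHE, 51.7 and 38.5 in FH, 32.0, 57.5 and 46.7 in FCE, and 23.1, 43.6 and 14.2 in FC. Its muscle levels were 371, 485 and 273 CPM in MHE, 512, 386 and 383 in MH, 339.9, 685 and 409.7 in MCE, and 538, 214 and 281 in MC. Here too the tissues did not overlap, in the opposite direction, by -3.16 on the log2 scale (SE 0.26, edgeR adjusted p = 1.06e-09). The fat libraries with muscle fibre transcripts, FHE3 and FCE2, ranked next after FHE2 for Cxcl14 in fat, and the part of muscle tissue in their levels was not tested.

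In the whole comparison of fat against muscle, 28 of the 34 ligands passed the filter on low counts, and 13 were higher and 2 lower in fat at an adjusted p under 0.05 (edgeR, 22 libraries, treatment as covariate). Of all 16528 genes tested, 31.8% were called higher and 22.5% lower in fat. The median log2 fold change was 1.14 over the 28 ligands and 0.18 over all genes. Several of these ligands passed the filter through fat alone, since only 16 ligands passed it within muscle. Ligands that entered in this way could hardly be called lower in fat. The split of calls and the median were therefore partly set by the filter. The count also has no bearing on the 6 ligands that were left out. Besides Cxcl12, the ligands called higher in fat were Cxcl16, Cxcl13, Cxcl9, Cxcl10, Ccl4, Ccl5, Ccl6, Ccl19, Ccl22, Ccl24, Cx3cl1 and Xcl1, and besides Cxcl14 only Ccl2 was called lower. The share of Mt-atp6 in the mitochondrial counts was under 8% in all 12 muscle libraries and in 4 fat libraries (FCE1, FCE3, FC3 and FH3) and over it in the other 6. With those 4 fat libraries alone against muscle, 11 ligands were called in either direction, against 15 with all, where 3400 of 17255 genes were called higher and 2364 lower. Among those lost were Ccl6 (adjusted p = 0.0658), Ccl22 (0.0535), Ccl24 (0.414) and Xcl1 (0.0549).

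**Figure D2:**
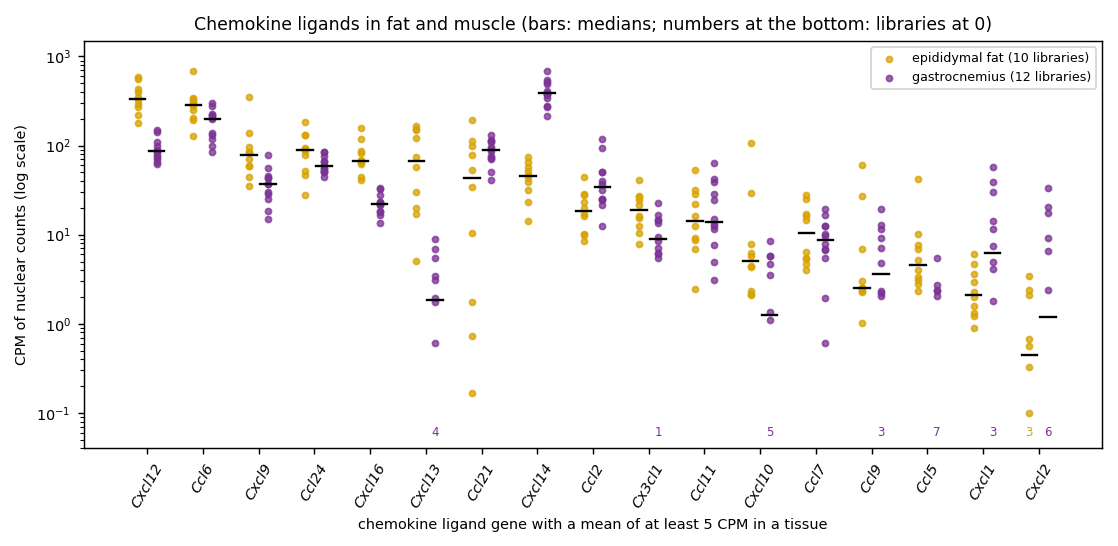
CPM of nuclear counts (log scale) of the 17 ligands with a mean of at least 5 CPM in fat or muscle, with 1 point per library above 0, bars at the medians above 0 and, at the bottom, the number of libraries with 0 counts. Cxcl12 and Cxcl16 separate the tissues with fat on top and Cxcl14 with muscle on top.

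Cxcl16, a membrane-bound ligand of Cxcr6 and a scavenger receptor of macrophages, was at 81.7 and 87.1 CPM in FHE, 67.6 and 158 in FH, 41.5, 44.1 and 118 in FCE, and 62.3, 68.3 and 65.7 in FC. In muscle it was at 13.7, 18.2 and 17.9 CPM in MHE, 27.9, 23.1 and 16.6 in MH, 22.1, 32.4 and 33.1 in MCE, and 23.4, 22.3 and 21.7 in MC. Every fat library was above every muscle library, and the log2 fold change was 1.83 (SE 0.19, edgeR adjusted p = 4.08e-08). Cxcl13, which draws B cells into lymphoid follicles through Cxcr5, had a larger log2 fold change, 4.62 (SE 0.60, edgeR adjusted p = 1.01e-06), and a much wider spread. It was at 166 and 57.7 CPM in FHE, 149 and 153 in FH, 16.9, 30.0 and 121 in FCE, and 75.2, 5.12 and 19.97 in FC. In muscle it had 0 counts in 4 of 12 libraries and reached at most 8.997 CPM. The B cell markers, whose cells Cxcl13 attracts, summed to 3.69 to 15.6 CPM in 9 fat libraries and 31.8 CPM in FH3. Their part in the Cxcl13 spread was not tested.

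Ccl6, Ccl24 and Ccl11 overlapped between the tissues. Ccl6 was at 316 and 193 CPM in FHE, 338 and 682 in FH, 129, 253 and 298 in FCE, and 206, 277 and 329 in FC. In muscle it was at 218, 119 and 85.3 CPM in MHE, 228, 299.9 and 197 in MH, 139, 202 and 214 in MCE, and 132, 98.7 and 278 in MC. The log2 fold change was 0.73 (SE 0.19, edgeR adjusted p = 0.00313). Macrophage markers were also higher in fat, where all 8 were called with a median log2 fold change of 0.97. Of all genes 31.8% were called higher, with a median of 0.18. The part of macrophages in the Ccl6 difference was not tested.

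Ccl24, an eosinophil attractant, was at 186 and 91.2 CPM in FHE, 130.4 and 132 in FH, 28.0, 85.9 and 94.8 in FCE, and 52.2, 46.7 and 78.5 in FC. In muscle it was at 50.0, 65.3 and 61.2 CPM in MHE, 84.5, 56.3 and 52.3 in MH, 76.2, 67.5 and 50.2 in MCE, and 54.5, 44.5 and 83.9 in MC. The muscle levels stayed within a narrow band, and the call of Ccl24, at 0.57 on the log2 scale (SE 0.21, edgeR adjusted p = 0.0249), was lost without FH1 (adjusted p = 0.0538) or FHE2 (adjusted p = 0.0777). Ccl11, the other eosinophil attractant, was at 32.0 and 28.5 CPM in FHE, 9.22 and 16.3 in FH, 8.62, 12.4 and 52.6 in FCE, and 22.3, 2.46 and 6.83 in FC. The muscle levels of Ccl11 were 38.7, 63.6 and 12.4 CPM in MHE, 24.8, 42.7 and 13.1 in MH, 28.4, 7.57 and 3.07 in MCE, and 15.02, 11.6 and 4.96 in MC. Its fat and muscle ranges nearly coincided (log2 fold change -0.01, SE 0.47, adjusted p = 0.987).

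Ccl2, the monocyte attractant, was the only CC ligand called lower in fat (log2 fold change -0.83, SE 0.31, adjusted p = 0.0308 from edgeR). In fat it was at 19.9 and 16.3 CPM in FHE, 23.0 and 28.1 in FH, 10.05, 17.04 and 28.3 in FCE, and 8.45, 44.9 and 9.93 in FC. The call was lost without FH1 (adjusted p = 0.0793), FH3 (0.0764), MC3 (0.0523) or MCE2 (0.0822), and the muscle values by treatment follow with the muscle comparisons. Of the neutrophil attractants, Cxcl1 and Cxcl2 had log2 fold changes of -1.45 (SE 0.69, adjusted p = 0.0829) and -2.54 (SE 1.08, adjusted p = 0.0510), neither past the threshold. Leaving out 1 library brought Cxcl1 as low as an adjusted p of 0.0282 (without MC3) and Cxcl2 as low as 0.0287 (without MCE1). In fat, Cxcl1 lay between 0.906 and 6.01 CPM and Cxcl2 between 0 and 3.47 CPM.

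Several ligands that lymphocytes or dendritic cells make were low in fat and near or under the detection limit in muscle. Ccl5, which attracts T cells and binds Ccr1, lay between 2.36 and 41.7 CPM in fat (median 4.60) and had 0 counts in 7 of 12 muscle libraries, at 2.74 on the log2 scale for fat over muscle (SE 0.78, edgeR adjusted p = 0.00503). Xcl1, which NK cells and T cells make and which attracts cross-presenting dendritic cells through Xcr1, lay between 0.181 and 3.72 CPM in fat, while 1 muscle library had 2 counts and the other 11 had none. Ccl22, a dendritic cell product that binds Ccr4, lay between 0.303 and 7.19 CPM in fat, with 4 counts in all muscle libraries together. For Xcl1 and Ccl22 the fat levels are close to the level of 3 counts in muscle, and their fitted fold changes of 3.41 (SE 0.87, adjusted p = 0.00209) and 3.48 (SE 0.82, adjusted p = 0.00119) depend on how 0 counts are treated. T cell markers were higher in fat as well, with 8 of 9 called (31.8% of all genes) and a median log2 fold change of 3.51. Only 2 of the 9 passed the filter within muscle, and markers that entered through fat could hardly be called lower there. The part of T cells in these ligands was not tested.

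In muscle, no ligand passed an adjusted p of 0.05 with edgeR for any of the 4 treatment contrasts or the interaction. The 16 of 34 ligands that passed the filter on low counts were tested among 12421 genes, and the share of all genes called was 0.00805% for CE against C, 0.0403% for H against C, 0.00805% for HE against H, 0% for HE against CE and 0% for the interaction. At an unadjusted p under 0.05, CE against C had 2 ligands, both higher (3.09% of all genes, 1.93% higher), and H against C had 4, all higher (8.42% of all genes, 5.83% higher and 2.59% lower). HE against H had 2 ligands, both lower (3.74% of all genes, 2.17% lower), HE against CE had 1 higher and 1 lower (3.58% of all genes, 1.96% higher and 1.62% lower), and the interaction had 3, all negative (3.82% of all genes, 2.17% negative). DESeq2 called Cxcl1 in CE against C (6 of 12421 genes higher and 0 lower), in H against C (90 higher and 17 lower) and in the interaction (6 higher and 7 lower), and called no ligand in HE against H or HE against CE. The contrasts share libraries: MC stands in the contrasts of CE and H, MH in those of H and HE.

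The neutrophil attractants Cxcl1 and Cxcl2 had counts in muscle of each treated group and none in MC. Cxcl1 (chromosome 14, 18743685 to 18745457, minus strand, Ensembl release 99) was at 11.7, 4.12 and 4.94 CPM in MHE, 38.9, 57.9 and 14.3 in MH, 1.81, 30.3 and 7.51 in MCE, and 0 in all 3 MC libraries. In counts this was 30, 12 and 8 in MHE, 88, 251 and 12 in MH, 6, 44 and 22 in MCE, and none in MC. All 9 libraries of treated rats held the transcript and all 3 of normoxia quiet rats lacked it, although the limit of 3 counts in MC was 0.709 to 2.90 CPM and the MCE1 level of 1.81 CPM falls inside that range. The mean in MH, 37.0 ± 21.9 CPM (SD, n = 3), was at least 21.0-fold higher than the mean level of 3 counts per library in MC, and the mean in MCE, 13.2 ± 15.1 CPM (SD, n = 3), was at least 7.50-fold higher. The edgeR test gave an unadjusted p of 8.6e-05 and an adjusted p = 0.107 for H against C, and an adjusted p = 1.0 for CE against C. With MC at 0, Cxcl1 could pass the filter only through the other groups, so a difference from MC was built into its being tested.

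Setting the hypoxic groups side by side, Cxcl1 averaged 6.93 ± 4.17 CPM in MHE and 37.0 ± 21.9 CPM in MH (SD, n = 3 each), and the MHE libraries all lay below the MH libraries. The log2 fold change of HE against H was -2.45 (SE 0.84, unadjusted p = 0.0131, adjusted p = 1.0 from edgeR). HE against CE had a log2 fold change of -0.90 (SE 0.86), with MCE spread on both sides of MHE. H against C was called without the filter on low counts (adjusted p = 0.00101), by DESeq2 (adjusted p = 2.85e-06) and without MCE1 or MCE2 (adjusted p = 0.0286 for each). With each library left out in turn, the adjusted p of H against C lay between 0.0286 and 0.350.

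Cxcl2, encoded beside Cxcl1 (chromosome 14, 18731378 to 18733391, minus strand), was at 6.64, 0 and 9.27 CPM in MHE, 20.3, 17.5 and 0 in MH, 0, 33.7 and 2.39 in MCE, and 0 in all 3 MC libraries. It was found in 2 of 3 libraries of each treated group. The treated libraries without it were MH3, MCE1 and MHE2, with 841153, 3306531 and 2910833 nuclear counts. The library with the highest level, MCE2, had 1452338. The part of depth in these absences was not tested. In edgeR, H against C had an unadjusted p of 0.0145 and an adjusted p = 0.450, and CE against C an unadjusted p of 0.0167. In the interaction the unadjusted p was 0.0157. As with Cxcl1, the filter could be passed only through the treated groups. Cxcl3 and Cxcl6, the other ligands of Cxcr2, were under the filter in muscle, and each had counts in 2 libraries only, MH1 and MH2. The likeness of these genes in sequence was not measured. How the counting assigned reads that fit more than 1 of them is not given in the sources used here.

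**Figure D3:**
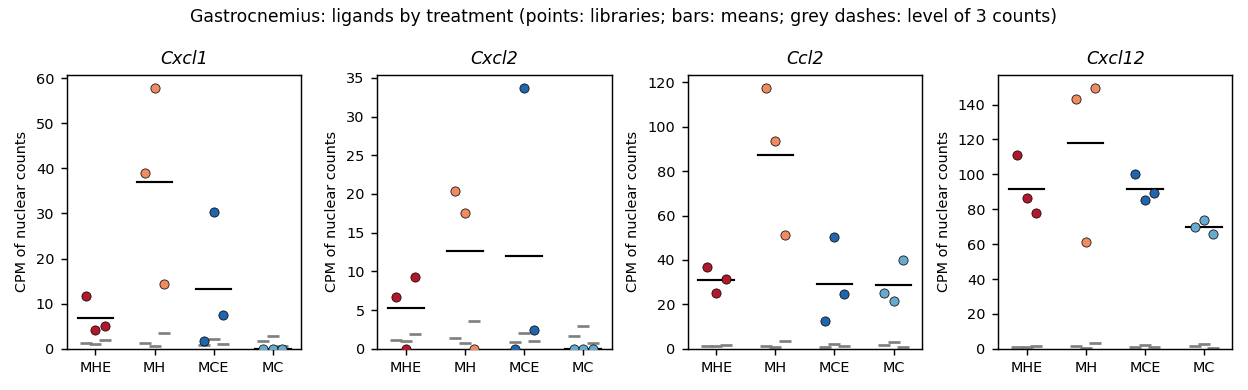
CPM of nuclear counts (linear axes) of Cxcl1, Cxcl2, Ccl2 and Cxcl12 in the 3 libraries of each muscle group, with bars at the group means and grey dashes at the level of 3 counts in each library. Cxcl1 and Cxcl2 are at 0 in the 3 MC libraries, and MH holds the highest points of Cxcl1, Ccl2 and Cxcl12, while the highest of Cxcl2 is in MCE.

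The promoters of Cxcl1 and Cxcl2 are shown because these tested ligands had no count in MC and counts in each treated muscle group. The sequences come from RefSeq (GRCr8) and give the 250 bases before the transcription start, 5′ to 3′ on the strand of the gene, with capitals where a base falls in a match to the kB consensus, the site bound by NF-kB, on either strand (overlapping matches run together). The interferon-stimulated response element, searched on both strands as GAAA, any pair of bases and GAAA again, had no match in either.
Cxcl1, chr14:17479322-17479571, minus strand: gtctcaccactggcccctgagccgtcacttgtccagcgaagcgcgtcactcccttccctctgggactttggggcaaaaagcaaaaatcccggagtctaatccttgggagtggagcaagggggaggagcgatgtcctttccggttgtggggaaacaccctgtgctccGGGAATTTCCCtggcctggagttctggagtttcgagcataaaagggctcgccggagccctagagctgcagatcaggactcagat
Cxcl2, chr14:17467256-17467505, minus strand: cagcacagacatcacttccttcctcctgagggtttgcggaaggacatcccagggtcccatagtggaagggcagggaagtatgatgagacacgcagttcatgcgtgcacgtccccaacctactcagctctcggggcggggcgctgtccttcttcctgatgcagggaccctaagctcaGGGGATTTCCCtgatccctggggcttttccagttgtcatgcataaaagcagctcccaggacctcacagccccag
The matches begin 84 bases before the start in Cxcl1 and 74 bases before it in Cxcl2. RefSeq promoters of 300 bases, 250 before and 50 after the start, were found for 28 of the 34 ligands. The kB consensus matched in 8 of these 28 (Ccl7, Ccl9, Ccl20, Cxcl1, Cxcl2, Cxcl6, Cxcl10 and Cxcl11) and in 7.6% of all 27457 promoters. A match is a run of letters and does not show that a factor was bound in these tissues. Of 11 tested NF-kB inducible inflammatory genes, which hold none of the ligands, 9 had a positive log2 fold change in H against C in muscle (median 0.75). Their summed level was 379, 256 and 341 CPM in MHE, 469, 451 and 289 in MH, 238, 604 and 259 in MCE, and 172, 230.4 and 209 in MC. Of the 604 CPM in MCE2, Nfkbia alone made up 403 CPM. Their part in the levels of Cxcl1 and Cxcl2 was not tested.

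Neutrophil markers, whose cells carry the receptor for Cxcl1 and Cxcl2, summed to 14.1, 26.5 and 3.71 CPM in MHE, 34.5, 15.2 and 11.9 in MH, 2.12, 4.13 and 2.05 in MCE, and 6.67, 6.78 and 2.84 in MC. The 3 MH libraries lay above the 6 MCE and MC libraries, and their part in the Cxcl1 and Cxcl2 levels was not tested. Only 2 of the 6 neutrophil markers passed the filter in muscle. Cxcr2 itself had counts in 2 of 12 muscle libraries, at 0.461 CPM in MH2 and 0.946 CPM in MC3.

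Ccl2 (chromosome 10, 69412017 to 69413870, plus strand, Ensembl release 99) was at 36.7, 25.1 and 31.5 CPM in MHE, 118, 93.7 and 51.1 in MH, 12.4, 50.3 and 24.6 in MCE, and 25.03, 21.3 and 40.2 in MC. The 3 MH libraries were above all 9 others. On the log2 scale Ccl2 differed by 1.57 in H against C (SE 0.45, unadjusted p = 0.00384, edgeR adjusted p = 0.315) and by -1.49 in HE against H (SE 0.45, unadjusted p = 0.00518, adjusted p = 1.0). Ccl7, which shares the receptor Ccr2, was at 10.2, 5.50 and 12.4 CPM in MHE, 9.73, 19.6 and 16.6 in MH, 0.605, 12.4 and 6.83 in MCE, and 6.67, 1.94 and 7.80 in MC. Its H and C libraries did not overlap, at 1.39 on the log2 scale (SE 0.77, edgeR adjusted p = 0.677). In the interaction of exercise and hypoxia the value of Ccl2 was -1.47 (SE 0.64, unadjusted p = 0.0376, adjusted p = 1.0), and it lay between -1.89 (without MCE1) and -0.78 (without MCE2) with 1 library left out. Macrophage markers summed to 738 to 859 CPM in MHE, 845 to 904 in MH, 736 to 1172 in MCE and 492 to 933 in MC. In H against C 7 of the 8 were positive (median log2 fold change 0.45), and their part in the Ccl2 level was not tested.

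Cxcl12 in muscle, listed by library above, averaged 118 ± 49.3 CPM in MH and 69.8 ± 3.94 CPM in MC (SD, n = 3 each). Its H library MH2 lay below all 3 MC libraries and the others above them, at 0.71 on the log2 scale (SE 0.27, unadjusted p = 0.0192, adjusted p = 0.478). Ackr3, a scavenging receptor for Cxcl12, was at 194, 147 and 106 CPM in MHE, 170.3, 192 and 196 in MH, 88.3, 152 and 167 in MCE, and 78.4, 116 and 86.5 in MC. Its H and C libraries did not overlap, at 0.98 on the log2 scale (SE 0.29, unadjusted p = 0.00460, adjusted p = 0.323). In HE against CE the smallest p was that of Cxcl16, at -0.81 on the log2 scale (SE 0.30, unadjusted p = 0.0187, adjusted p = 0.997) and no overlap between MHE and MCE. Ccl11 had 1.59 there (SE 0.71, unadjusted p = 0.0407) with overlapping groups, with 2.90 without MCE1 and 0.95 without MHE2.

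Over all 16 ligands tested in muscle, 15 had a positive log2 fold change in H against C with a median of 0.67, beside a median of 0.00 over all genes. The groups did not overlap for 4 ligands, all higher in MH (Ccl2, Ccl7, Cx3cl1 and Cxcl1), where 13.8% of all genes did not overlap, 8.2% higher and 5.59% lower in MH. In CE against C, 12 of 16 were positive (median 0.25), and Cxcl1 and Cxcl12 did not overlap, both higher in MCE (7.66% of all genes, 4.19% higher). For Cxcl1 the lowest MCE level, 1.81 CPM, lay under the highest MC limit of 2.90 CPM. In HE against H, 13 of 16 were negative (median -0.37), and Ccl2 and Cxcl1 did not overlap, both lower in MHE (8.74% of all genes, 4.82% lower). HE against CE had 9 of 16 negative (median -0.11), with Cxcl16 alone free of overlap, lower in MHE (9.51% of all genes, 4.7% lower). The median of HE against CE was 0.33 without MCE2, 0.05 without MHE3, -0.18 without MCE3 and -0.19 without MHE1. The other medians kept their signs, with H against C at 0.43 without MH2, CE against C at 0.39 without MCE1 and 0.15 without MC2, and HE against H at -0.24 without MH1. Cxcl1 and Cxcl2 are among the 16 only through the treated groups, and the MH libraries stand in both H against C and HE against H, so the opposite signs of those contrasts are not separate observations.

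The muscle levels of Cxcl9 by library were 78.2, 45.3 and 18.5 CPM in MHE, 43.4, 30.2 and 36.9 in MH, 28.4, 56.5 and 15.02 in MCE, and 43.4, 25.2 and 37.1 in MC, with all 4 groups overlapping. Cxcl10 and Cxcl11, the other ligands of Cxcr3, had 0 counts in 5 and 7 of the 12 muscle libraries. Cxcl9 was higher in fat (log2 fold change 1.37, SE 0.29, adjusted p = 0.000414 from edgeR), and so was Cxcl10 (2.11, SE 0.73, adjusted p = 0.0183), which was not called without FCE2 (adjusted p = 0.0654) or FH3 (adjusted p = 0.111).

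In fat, no ligand passed the adjusted threshold with edgeR in any contrast either, and neither did any of the 16364 genes tested (0% called in all 5). Of the 34 ligands, 28 passed the filter. At an unadjusted p under 0.05, CE against C had 2 ligands, both lower (5.04% of all genes, 1.99% lower), and H against C had 3 higher and 1 lower (4.75% of all genes, 2.4% higher and 2.35% lower). HE against H had 1 higher and 2 lower (16.8% of all genes, 7.41% higher and 9.42% lower), HE against CE had 1 lower (11.4% of all genes, 4.8% higher and 6.56% lower), and the interaction had 2, both negative (5.21% of all genes, 3.15% negative). DESeq2 called Cxcl10 in HE against H, where it called 490 of 16364 genes higher and 506 lower, and in the interaction, where it called 48 higher and 15 lower. In the other 3 contrasts it called no ligand. These contrasts also share libraries, FC and FH among them.

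The ligands of Cxcr3 were highest in 1 library, FH3. The next highest was FHE2 for Cxcl9 (139 CPM) and FCE2 for Cxcl10 (29.3 CPM). Cxcl9 was at 139 and 85.6 CPM in FHE, 58.9 and 354 in FH, 70.3, 44.5 and 35.4 in FCE, and 84.7, 95.8 and 59.1 in FC. Cxcl10 (chromosome 14, 17210733 to 17212930, plus strand, Ensembl release 99) was at 2.09 and 2.32 CPM in FHE, 6.20 and 107 in FH, 4.51, 29.3 and 4.37 in FCE, and 2.14, 5.72 and 7.77 in FC. Cxcl11 was at 0.499 and 0.609 CPM in FHE, 0.597 and 11.5 in FH, 1.72, 1.03 and 0.598 in FCE, and 0.550, 1.33 and 1.21 in FC. FH3 was the highest fat library for all 3 ligands, and the other FH library, FH1, lay within the range of FCE and FC for each of them.

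On the log2 scale Cxcl10 differed by 3.10 in H against C (SE 1.08, unadjusted p = 0.0180, adjusted p = 0.917) and by -4.28 in HE against H (SE 1.34, unadjusted p = 0.0105, adjusted p = 0.222, both from edgeR). DESeq2 gave -4.29 with an adjusted p = 0.00464 for HE against H. Without FH3, which leaves FH1 alone in its group, the values were 0.32 and -1.49. Cxcl11 had 2.18 in H against C (SE 0.93, unadjusted p = 0.0424) and -3.03 in HE against H (SE 1.12, unadjusted p = 0.0230), and without FH3 the values were -0.73 and -0.10. These differences rested on FH3. In the interaction of exercise and hypoxia, Cxcl10 had -5.68 (SE 1.64, unadjusted p = 0.00666, adjusted p = 0.943) and Cxcl11 had -3.26 (SE 1.38), against -2.92 and -0.35 without FH3. With the Mt-atp6 share (low or high) as a term in the fit no ligand was called in fat, and Cxcl10 was at 3.12 in H against C and -4.33 in HE against H.

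**Figure D4:**
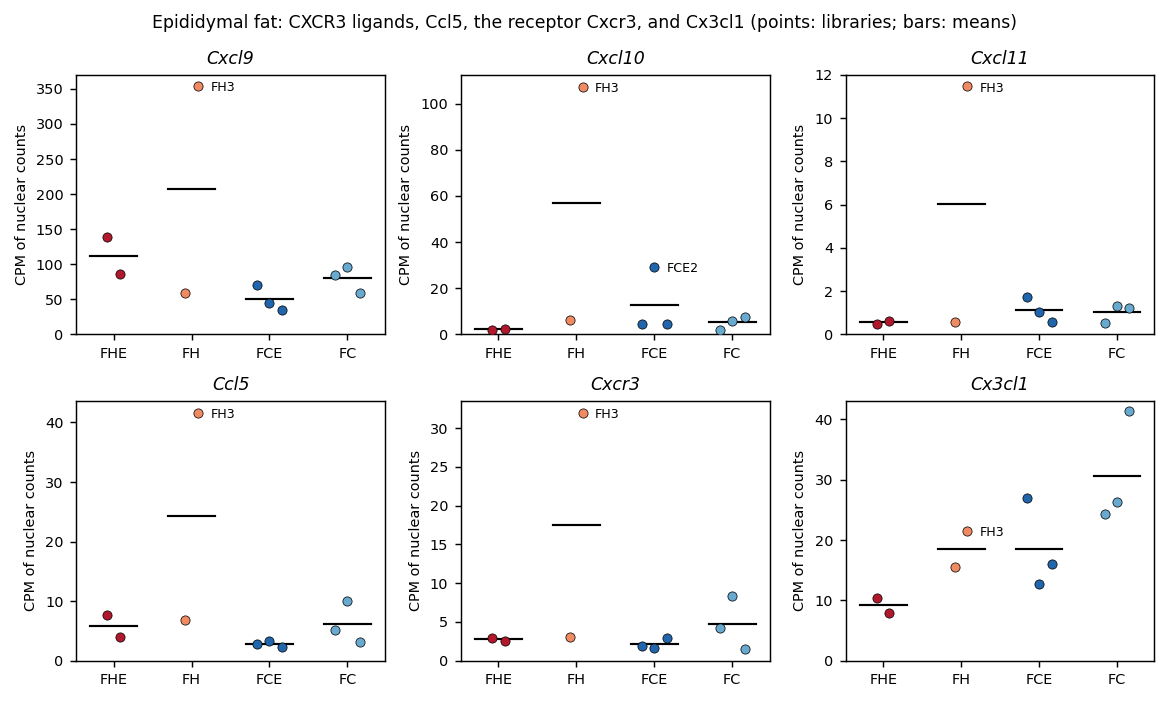
CPM of nuclear counts (linear axes) of the Cxcr3 ligands Cxcl9, Cxcl10 and Cxcl11, of Ccl5, of the receptor Cxcr3 and of Cx3cl1 in the 2 or 3 libraries of each fat group, with bars at the group means. FH3 is the highest point in the first 5 panels, FCE2 the next highest for Cxcl10, and the mean of Cx3cl1 is highest in FC.

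Ccl5 and the receptor Cxcr3 were also highest in FH3. Ccl5 was at 7.73 and 3.995 CPM in FHE, 6.89 and 41.7 in FH, 2.81, 3.38 and 2.36 in FCE, and 5.21, 10.1 and 3.09 in FC. Its log2 fold change in H against C was 1.62 (SE 0.66, unadjusted p = 0.0365, adjusted p = 1.0) and 0.17 without FH3. Cxcr3 was at 2.99 and 2.51 CPM in FHE, 3.10 and 32.0 in FH, 1.91, 1.69 and 2.99 in FCE, and 4.25, 8.32 and 1.51 in FC. In FH3 the T cell markers summed to 401 CPM, against 49.0 to 181 CPM in the other 9 fat libraries, the NK cell markers to 88.8 CPM, against 3.57 to 18.0 CPM, and the dendritic cell markers to 96.4 CPM, against 14.4 to 65.6 CPM. The interferon gamma genes outside the chemokines summed to 1661 CPM in FH3, against 324 to 582 CPM. FH3 was the highest fat library for 12 of the 31 ligands with at least 3 counts in some fat library (38.7%), and for 35.8% of all genes counted in the same way.

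The promoters of Cxcl10 and Cxcl11 are shown because these Cxcr3 ligands were past an unadjusted p of 0.05 in H against C in fat. They come from RefSeq (GRCr8) and are given as for Cxcl1 and Cxcl2, with capitals for kB consensus matches, except that the first run of capitals in Cxcl10 is a match to the interferon-stimulated response element.
Cxcl10, chr14:15988816-15989065, plus strand: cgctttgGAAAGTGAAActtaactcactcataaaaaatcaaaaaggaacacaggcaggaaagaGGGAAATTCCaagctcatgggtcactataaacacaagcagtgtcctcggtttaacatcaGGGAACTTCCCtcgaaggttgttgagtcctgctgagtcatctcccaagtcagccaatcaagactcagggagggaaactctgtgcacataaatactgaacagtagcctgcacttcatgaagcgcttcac
Cxcl11, chr14:15973478-15973727, plus strand: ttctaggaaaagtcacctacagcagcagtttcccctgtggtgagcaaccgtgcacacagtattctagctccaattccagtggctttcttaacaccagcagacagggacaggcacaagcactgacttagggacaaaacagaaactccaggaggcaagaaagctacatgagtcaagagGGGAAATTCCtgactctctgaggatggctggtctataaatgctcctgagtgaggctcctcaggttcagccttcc
The interferon-stimulated response element match begins 243 bases before the start of Cxcl10, and its kB matches begin 187 and 128 bases before it. In Cxcl11 the kB match begins 74 bases before the start. That element matched in 2 of the 28 ligand promoters (Ccl19 and Cxcl10) and in 3.77% of all promoters, and its match does not overlap a kB match in Cxcl10.

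Cx3cl1, the membrane-anchored ligand fractalkine that holds monocytes to endothelium through Cx3cr1, was lowest in FHE. In fat (chromosome 19, 10644244 to 10653800, minus strand, Ensembl release 99) it was at 10.4 and 7.95 CPM in FHE, 15.5 and 21.5 in FH, 26.9, 12.6 and 16.004 in FCE, and 24.2, 26.4 and 41.4 in FC. Both FHE libraries lay below the other 8, and all FH libraries lay below all FC libraries. The log2 fold change was -0.93 in H against C (SE 0.38, unadjusted p = 0.0347, adjusted p = 1.0) and -1.08 in HE against CE (SE 0.38, unadjusted p = 0.0189, adjusted p = 0.372, both from edgeR). Without FH3 the first was also -0.93, no longer past an unadjusted p of 0.05, and over the omission of each library in turn HE against CE lay between -1.29 and -0.63, the last without FCE1. With the Mt-atp6 share as a term, Cx3cl1 was at -0.97 in H against C and at -0.73 in HE against CE. Endothelial markers summed to 1484 and 1109 CPM in FHE, 1174 and 1032 in FH, 1014 to 1241 in FCE and 1001 to 1389 in FC, with all groups overlapping. FHE3, the lower of the FHE libraries for Cx3cl1, also held muscle fibre markers at 25656 CPM. Mitochondrial transcripts took 44.7% and 40.7% of the counts in FHE2 and FHE3, against 10.1% to 22.6% in the other 8. The part of either in the Cx3cl1 levels was not tested.

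The muscle levels of Cx3cl1 were 7.04, 13.4 and 22.9 CPM in MHE, 14.6, 14.5 and 16.6 in MH, 5.44, 6.20 and 8.53 in MCE, and 9.45, 0 and 6.15 in MC. All MH libraries lay above all MC libraries, and the log2 fold change of 1.41 (SE 0.68, adjusted p = 0.608) had the opposite sign to that in fat. Across tissues Cx3cl1 was higher in fat (log2 fold change 1.05, SE 0.39, adjusted p = 0.0282), a call that was lost without FCE1 (adjusted p = 0.0568), MC1 (0.0506), MC3 (0.0652) or MCE1 (0.0563). The receptor Cx3cr1 was at or under 2.32 CPM in every fat library and had counts in 1 of 12 muscle libraries.

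In CE against C in fat, the ligands past an unadjusted p of 0.05 were Ccl9 and Ccl22, and both rested on FC2. Ccl9, a myeloid attractant known from mouse, was at 2.49 and 2.32 CPM in FHE, 3.04 and 27.5 in FH, 2.27, 2.53 and 1.02 in FCE, and 2.55, 60.6 and 6.87 in FC. Ccl22 was at 0.798 and 0.989 CPM in FHE, 0.597 and 4.55 in FH, 0.303, 0.965 and 0.598 in FCE, and 0.521, 7.19 and 1.74 in FC. FC2 was the highest fat library for both and FH3 the next. On the log2 scale Ccl9 differed by -3.50 (SE 1.16, unadjusted p = 0.0137, adjusted p = 0.923) and -1.13 without FC2, and Ccl22 had -2.27 (SE 0.98, unadjusted p = 0.0448, adjusted p = 0.923) and -0.73 without FC2. FC2 was also the highest fat library for Ccl2, at 44.9 CPM. Ccl27, a ligand of Ccr10 known from skin, was at 3.04 and 2.40 CPM in FHE, 0.895 and 0.991 in FH, 2.06, 0.845 and 1.29 in FCE, and 1.27, 0.996 and 0.793 in FC. The FHE libraries were the highest of the 10, and HE against H differed by 1.73 on the log2 scale (SE 0.63, unadjusted p = 0.0214, adjusted p = 0.244).

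Over the 28 ligands tested in fat, 21 had a positive log2 fold change in H against C with a median of 0.88, beside 0.02 over all genes. Without FH3 that median was -0.10, and 0 ligands were past an unadjusted p of 0.05. The groups did not overlap for 7 ligands (19.1% of all genes), of which Ccl6, Ccl7, Ccl24, Cxcl2, Cxcl6 and Cxcl13 were higher in FH (14.2% of all genes) and Cx3cl1 was lower (4.91%). In the same contrast 8 of 8 macrophage markers were positive (median log2 fold change 0.78), as were 11 of 11 mesothelial markers (median 5.73). The mesothelial sum was 1196 CPM in FH3 and 168 CPM in FH1. Also positive were 9 of 9 T cell, 6 of 6 NK cell and 7 of 7 mast cell markers. By contrast, 2 of 6 neutrophil, 1 of 8 endothelial and 0 of 5 platelet markers were positive. Of all 16364 genes, 8418 were positive. The part of such cells in the ligand levels was not tested. In HE against H, 21 of 28 ligands were negative (median -0.42), but the median was 0.38 without FH3, -0.81 without FH1 and -0.94 without FHE2. There 0 of 8 macrophage and 0 of 9 T cell markers were positive. The muscle fibre markers were positive for 8 of 8 (median 10.79), but this rested on FHE3. Their sum was 25656 CPM in FHE3, 15.6 CPM in FHE2, and 9.63 and 31.2 CPM in FH. The part of these cell types in the ligand levels was not tested. Of the 28 ligands 12 did not overlap, 4 higher and 8 lower, where 43.1% of all genes did not overlap with 2 libraries on each side (14.2% higher and 28.9% lower). HE against CE had a median of 0.19, with 7 ligands free of overlap, 5 higher and 2 lower (28.8% of all genes, 14.6% higher and 14.2% lower), and CE against C a median of 0.15, with only Ccl9 free of overlap, lower in FCE (10.4% of all genes, 4.24% higher and 6.18% lower). Leaving out 1 library moved both medians across 0: HE against CE had 0.57 without FCE3 and -0.02 without FCE1, and CE against C had -0.37 without FCE3, -0.04 without FC1, 0.01 without FCE1 and 0.04 without FCE2.

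Ccl21, which guides dendritic cells and T cells into lymphatic vessels and lymph nodes through Ccr7, spanned the widest ratio of highest to lowest fat library among the ligands with a mean of at least 5 CPM. It was at 1.74 and 99.96 CPM in FHE, 34.4 and 113 in FH, 10.4, 0.724 and 192 in FCE, and 53.1, 0.166 and 77.6 in FC. In muscle it was steady, at 92.6, 70.1 and 95.1 CPM in MHE, 132, 40.8 and 109 in MH, 116, 87.4 and 76.1 in MCE, and 72.9, 50.3 and 111 in MC. The 3 lowest fat libraries were FHE2, FCE2 and FC2, each from another treatment and each numbered 2, and no source used here says what a number marks. Genes of lymphatic endothelium, the cells known to make Ccl21 in vessels, were looked up after these values were seen. Mmrn1 was at 1.35, 0.332 and 0.470 CPM in FHE2, FCE2 and FC2 and at 1.15 to 35.8 CPM in the other 7 fat libraries. Reln was at 0.798, 0.905 and 0.277 CPM in FHE2, FCE2 and FC2 and at 4.48 to 14.9 CPM in the others. Flt4 and Lyve1, which other cells also express, were at 15.5 to 21.0 CPM and 26.5 to 173 CPM in those 3 libraries, within the range of the others. Prox1 was at 0, 0.241 and 0.0553 CPM and Pdpn at 58.0, 33.0 and 20.9 CPM in FHE2, FCE2 and FC2. Neither separated them from the others, where Prox1 was at 0 to 4.53 CPM and Pdpn at 22.6 to 167 CPM. The part of lymphatic vessels in the Ccl21 spread was not tested. RefSeq lists Ccl21b as another name of this gene, and reads from near-identical copies cannot be told apart in these counts.

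**Figure D5:**
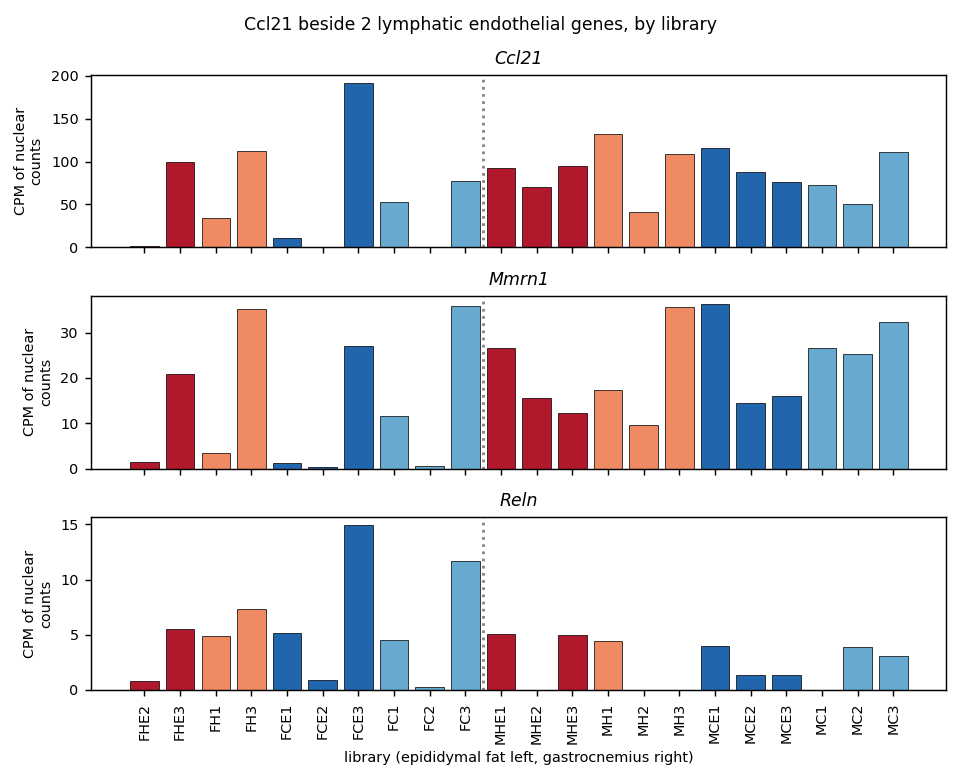
CPM of nuclear counts (bars, linear axes) of Ccl21 and of Mmrn1 and Reln, genes of lymphatic endothelium, in each fat and muscle library, coloured by treatment. The bars of FHE2, FCE2 and FC2 are close to 0 for all 3 genes, and Ccl21 is between 40.8 and 132 CPM in every muscle library.

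Of 22 receptor genes found in the table, 18 were tested in fat and 7 in muscle, and edgeR called none of them in any treatment contrast. At an unadjusted p under 0.05, fat had 5 receptors in HE against H, all lower (16.8% of all genes, 9.42% lower). There was also 1 in HE against CE (11.4% of all genes) and 1 in CE against C (5.04%) in fat. In muscle there was 1, in H against C (8.42%). Against muscle, 8 of 18 were called higher in fat and none lower, beside 31.8% and 22.5% of all genes. The calls were led by Cxcr2 (log2 fold change 4.65, SE 0.57), Cxcr6 (7.33, SE 1.09), Xcr1 (3.47, SE 0.75) and Cxcr3 (3.46, SE 0.88), which lymphocytes, neutrophils and dendritic cells carry. Within muscle only 7 receptors passed the filter. Receptors that entered through fat could hardly be called lower there, so the split of calls was partly set by the filter. Cxcr6 had no count in any muscle library, so its fitted value is not a measured fold. Cxcr2 was at 1.40 and 0.799 CPM in FHE, 3.82 and 4.12 in FH, 4.63, 7.63 and 4.85 in FCE, and 2.95, 6.39 and 9.85 in FC. FHE was below every other fat library, by -2.43 on the log2 scale in HE against CE (SE 0.56, unadjusted p = 0.00166, adjusted p = 0.273) and by -1.65 in HE against H (SE 0.57, unadjusted p = 0.0173, adjusted p = 0.237). The part of the muscle fibre transcripts of FHE3 in its Cxcr2 level was not tested. In HE against H the receptors Cxcr6 (-2.57, SE 0.87), Ccr7 (-2.08, SE 0.84) and Cxcr3 (-2.29, SE 0.96) were also past an unadjusted p of 0.05, and FH3 was their highest fat library. In CE against C the smallest p was that of Ccr1, a receptor of Ccl3 and Ccl5 (log2 fold change -1.43, SE 0.51, unadjusted p = 0.0200, adjusted p = 0.923). Ccr2, the receptor of Ccl2 and Ccl7, named after its values were seen, was at 0.0499 to 0.991 CPM in fat, where its ligand Ccl2 was at 8.45 to 44.9 CPM.

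The remaining ligands were low. In fat, Ccl3, Ccl4, Ccl12, Ccl17, Ccl19, Ccl28, Cxcl3, Cxcl6, Cxcl17, Xcl1 and Ccl1 had means under 5 CPM. Ccl19, another ligand of Ccr7, lay between 0.332 and 9.09 CPM. Its call as higher in fat than in muscle (2.17 on the log2 scale, SE 0.80, adjusted p = 0.0270) was lost without FC3 (0.0518), MCE1 (0.0527) or MCE3 (0.0520). Ccl19 was lowest in FCE2 and FC2 (0.362 and 0.332 CPM) and at 2.14 CPM in FHE2. Ccl4 and Ccl3, which macrophages and T cells make, were highest in FH3 at 8.58 and 6.57 CPM. In muscle, Ccl1, Ccl3, Ccl4, Ccl12, Ccl17, Ccl19, Ccl27, Cxcl11 and Cxcl17 had counts in some libraries at no more than 4.13 CPM, close to or below the level of 3 counts in the shallow libraries, and are given by range only. Ccl28, a mucosal ligand of Ccr10, had a mean of 0.264 CPM in FHE and no count in FH, which is at least 2.89-fold higher than 3 counts per library. Ccl5 in muscle had counts in all 3 MCE libraries (8, 4 and 6) and in none of MC, but its lowest MCE level of 2.05 CPM lay under the highest MC limit of 2.90 CPM.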

How the data were processed

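RNA from 10 fat and 12 muscle libraries was compared. Per the labels and the study's methods, reads were checked with FastQC, trimmed with Trimmomatic and aligned with HISAT2, with Ensembl release 99 genes. The authors deposited read counts per gene, not normalised, and TPM values, scaled by gene length and library total. The counting program and its strand setting are not given in the sources used here, and 22 FPKM columns were not used. A share of even values of 51.5% to 56.5% in fat and 62.7% to 68.2% in muscle among counts of 1 to 20 was found in the deposited counts.

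Counts were scaled to CPM over nuclear genes, and the deposited TPM was rescaled over the same genes. Detection took 3 counts per library. Tests used edgeR 4.0.16 (quasi-likelihood, TMM, filterByExpr, R 4.3.3) over all genes, within each tissue over its 4 groups, with Benjamini-Hochberg adjustment. Fat was set against muscle with treatment as covariate. DESeq2 1.42.0, other size factors, no filter, nuclear genes only, a block on the number, a term for the Mt-atp6 share, leaving out FHE3 and FCE2 and leaving out each library were alternatives, and fat libraries with a low Mt-atp6 share alone were added after seeing the data. Tables were summarised with pandas 2.3.3 and drawn with matplotlib 3.10.9. The scripts were tested on simulated data.

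The ligands and gene lists were chosen with earlier results of these data known. Values in every library were given for ligands with a mean of at least 5 CPM in a tissue (up to 12) and for up to 4 per contrast with the smallest unadjusted p under 0.05. Up to 4 receptors per contrast were named by the smallest unadjusted p, and 1 receptor is not reported here. Of 164 list genes, 157 were found. Depths of 841153 to 4334813 nuclear counts in muscle limit low ligands there. Numbers in the labels were not taken as pairs, and no source used here says what they mark. In fat 8 of 12 same-numbered pairs of deviations from the group mean correlated over 0.1 (-0.41 to 0.49), against 6 of 25 differently numbered ones. In muscle 4 of 18 did (-0.19 to 0.33), against 8 of 36. In FHE and FH, with n = 2, the deviations mirror each other, so these pairs are not separate observations. The counts do not decide whether the numbers mark pairs.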

Additional observations from a re-analysis of the deposited data

Results flagged for a closer look

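Cx3cl1 moved in opposite directions in the 2 tissues in H against C. In fat the log2 fold change was -0.93, with both FH libraries (15.5 and 21.5 CPM) below the 3 FC libraries (24.2, 26.4 and 41.4 CPM). In muscle it was 1.41, with the 3 MH libraries (14.6, 14.5 and 16.6 CPM) above the 3 MC libraries (9.45, 0 and 6.15 CPM). Neither passed the adjusted threshold, and the difference between the tissues was not tested.

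Cxcl1 in muscle had counts in each MCE library and none in MC, and it was lower in MHE than in MH without overlap. The MCE1 level of 1.81 CPM lay under the highest MC limit of 2.90 CPM. With MC at 0, Cxcl1 could pass the filter only through the other groups, so a difference from MC was built in. The interaction of exercise and hypoxia was -10.44 on the log2 scale (unadjusted p = 0.000175, adjusted p = 0.333 from edgeR), a size that depends on the prior count because MC was at 0. The treadmill speed also differed between HE and CE, so oxygen and speed cannot be told apart here.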

How the results depend on the processing

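Of the counts of ligands called, 190 alternatives lay within 1.5 times of the main count and 9 did not. DESeq2 called 1 ligand, against 0 with edgeR, in HE against H and in the interaction in fat (Cxcl10) and in CE against C, H against C and the interaction in muscle (Cxcl1), and without the filter on low counts 1 ligand, Cxcl1, was called in H against C and in the interaction in muscle. With 1 library left out, 0 to 1 ligand was called in H against C in muscle, the 1 being Cxcl1 without MCE1 or MCE2. Of single log2 fold changes, 870 kept direction and side of the threshold, 23 gained and 23 lost a call and 1 turned round: Cxcl11 in H against C in fat, which ranged from -0.73 without FH3 to 3.06. In fat against muscle 15 ligands were called, and 13 to 17 with 1 library left out. There, Ccl2 (adjusted p = 0.0597) and Cxcl10 (0.0594) lost their calls without FHE3 and FCE2. The cause of these changes was not tested. With a replicate block on the numbers in the labels, which were not taken as pairs, 0 ligands were called in each of the 10 treatment contrasts and 13 in fat against muscle, where Ccl24 (adjusted p = 0.0928) and Cx3cl1 (0.0792) lost theirs. Depth limits ligands under about 3 counts in muscle.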
